A study of Mus musculus with 15 samples.

Results

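Choroid plexus genes were examined in RNA sequencing libraries of foetal mouse cortex and of cortical neuron cultures with and without PHF6, to ask whether *Ttr* moves with the other genes of the same epithelium. The 10 members, of 23128 genes kept, were a list of genes of the choroid plexus epithelium: *Ttr*, *Folr1*, *Clic6*, *Kl*, *Aqp1*, *Kcnj13*, *Slc4a5*, *Prlr*, *Enpp2* and *Kcne2*. The genes were taken by name, by a rule that uses no measured value, although the list was drawn up with earlier results of these data known. E15.5 cortex came from 3 controls (*Phf6 +/Y*) and 5 foetuses with a germline deletion (*Phf6 -/Y*) of 3 litters. Cultured cortical neurons of E16.5 foetuses came from 3 controls (*Phf6 +/Y;Nes-cre Tg/+*) and from 4 foetuses of the genotype *Phf6 lox/Y;Nes-cre Tg/+* of 4 litters. The control and the deleted cultures therefore both carried the Nes-cre transgene, whose Cre recombinase acts in the neural tube and deletes the floxed *Phf6* exons there, and all mice were C57BL/6. Litters 4 to 6 each gave 1 control and 1 deleted culture, whereas litter 7 gave 1 deleted culture and no control. Total counts ranged from 16858007 to 31157700 reads per library. *Phf6* lay between 157.7 and 199.9 CPM (counts scaled to a common library size by TMM) in control cortices and between 44.7 and 57.8 CPM in deleted cortices, and between 215 and 245 CPM in control neurons and 56.9 and 80.8 CPM in deleted neurons, without overlap.

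The choroid plexus is a folded sheet of epithelium that arises from the dorsal midline of the brain next to the cortical hem, hangs into the ventricles and secretes cerebrospinal fluid. Its cells make transthyretin, a carrier of thyroid hormone, in very large amounts. They also carry the channels, transporters and receptors that move water, ions and vitamins between blood and fluid. The tissue is attached to the medial edge of the foetal cortex. In a bulk library, a change in the number of such cells and a change in the RNA of each cell cannot be told apart.

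*Clic6* (92498147 to 92541241) and *Kcne2* (92292389 to 92298133) lie near each other on chromosome 16 of GRCm38, and no 2 members overlap. Exons of *Kcnj13* overlap exons of *Gigyf2* on the opposite strand, those of *Enpp2* overlap the noncoding RNA gene *Gm26684* on the opposite strand, and those of *Prlr* overlap *Gm21973* on the same strand. The strand setting of the counting was not given, so reads of these 3 members could include or miss reads of the overlapping gene.

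RefSeq promoters (GRCm38.p6, 250 bases before to 50 bases after a start) were at hand for 6 of the 10 members, 9 promoters in all. None was at hand for *Ttr*, *Folr1*, *Clic6* or *Enpp2*, so these genes were not searched. They were searched on both strands for TAATCC, a core site of OTX factors, for TAATTA, a homeodomain core, and for GTTGCC, which forms one arm of the site of RFX factors. TAATCC and TAATTA both begin with TAAT, so matches of these motifs could overlap in a sequence. None of the 9 searched promoters held TAATCC or TAATTA, which 7.06% and 5.29% of all 32851 promoters held. At such shares, 9 promoters are too few for an absence to say anything. GTTGCC was found in 2 of the 9 promoters, those of *Aqp1* and *Kcne2*, against 12.5% of all promoters. The promoters at the gene start of *Aqp1*, *Kcne2* and *Kcnj13* are shown because these channel genes were high in the same cortex libraries as *Ttr*. They are at chr6:55336049-55336348 (plus strand), chr16:92292139-92292438 (plus strand) and chr1:87394680-87394979 (minus strand), and capitals mark GTTGCC or its reverse complement.
Aqp1: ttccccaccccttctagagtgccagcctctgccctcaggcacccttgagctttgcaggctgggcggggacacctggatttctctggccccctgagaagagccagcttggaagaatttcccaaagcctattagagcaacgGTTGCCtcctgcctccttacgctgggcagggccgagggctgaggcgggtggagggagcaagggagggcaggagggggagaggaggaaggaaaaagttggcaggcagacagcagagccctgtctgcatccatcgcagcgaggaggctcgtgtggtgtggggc
Kcne2: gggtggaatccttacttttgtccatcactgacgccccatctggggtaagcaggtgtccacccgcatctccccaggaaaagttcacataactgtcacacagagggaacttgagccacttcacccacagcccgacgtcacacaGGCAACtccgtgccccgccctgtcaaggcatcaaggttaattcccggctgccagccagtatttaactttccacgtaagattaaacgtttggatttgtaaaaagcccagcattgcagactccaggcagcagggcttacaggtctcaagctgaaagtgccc
Kcnj13: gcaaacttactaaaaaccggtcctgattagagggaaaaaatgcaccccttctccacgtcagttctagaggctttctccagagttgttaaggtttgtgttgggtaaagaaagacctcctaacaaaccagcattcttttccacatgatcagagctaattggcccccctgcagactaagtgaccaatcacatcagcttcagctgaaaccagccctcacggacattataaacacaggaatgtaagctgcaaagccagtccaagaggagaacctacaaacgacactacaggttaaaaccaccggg

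Per length of gene, *Ttr* was the most abundant member in the cortex, with a median of 33.7 RPKM (reads scaled to gene length and library size) over the 8 libraries and a range from 0.432 to 375.5 RPKM. *Enpp2*, which encodes autotaxin, the secreted enzyme that makes lysophosphatidic acid, followed at a median of 5.07 RPKM and a much narrower range from 2.56 to 10.25 RPKM. Median levels were 1.13 RPKM for *Clic6*, a member of the chloride intracellular channel family, 0.699 for *Folr1*, the alpha folate receptor, 0.685 for *Kcne2*, an accessory subunit of potassium channels, and 0.6805 for *Aqp1*, a water channel. *Kcnj13*, an inwardly rectifying potassium channel, had a median of 0.206 RPKM and *Slc4a5*, a sodium bicarbonate cotransporter, of 0.0938 RPKM. *Kl*, which encodes klotho, the co-receptor of FGF23, was at 0.086 RPKM and *Prlr*, the prolactin receptor, at 0.0345 RPKM. The ranges of neighbours in this order overlapped, that of *Ttr* spanning the whole range of *Enpp2*. In the neuron cultures the medians were 1.875 RPKM for *Ttr* and 1.07 RPKM for *Enpp2*, and the other 8 members lay between 0.00517 and 0.203 RPKM.

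In the E15.5 cortex, *Ttr* (Entrez gene 22139, a gene of chromosome 18) varied more between libraries than between genotypes. The counts were 16, 10938 and 7795 reads in *Phf6 +/Y* replicates 1 to 3, which is 0.528, 458.5 and 329 CPM. They were 1502, 423, 40, 8746 and 31 reads in *Phf6 -/Y* replicates 1 to 5, which is 66.5, 15.9, 1.52, 314 and 1.36 CPM. Control replicates 2 and 3 and deleted replicate 4 were high, the lowest and the highest library were both controls, and the groups overlapped. The highest library held 869-fold the level of the lowest.

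The channels and transporters followed the same libraries. *Clic6* had 27, 625 and 443 reads in control cortices and 135, 67, 28, 629 and 15 reads in deleted cortices. *Aqp1* had 14, 325 and 268 reads in controls and 45, 47, 21, 330 and 14 reads in deleted cortices. *Kcne2* had 4, 242 and 171 reads against 38, 17, 2, 263 and 3 reads. In each of these genes the same 3 libraries as for *Ttr* stood above the rest. *Slc4a5* had 6, 97 and 75 reads in controls and 9, 15, 5, 106 and 3 reads in deleted cortices. *Kcnj13* had 4, 47 and 36 reads in controls and 1, 9, 1, 59 and 5 reads in deleted cortices. Both again had their highest values in control replicates 2 and 3 and deleted replicate 4, although *Kcnj13* had only 1 read in deleted replicate 1, where *Ttr* had 1502.

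Among the receptors and secreted products, *Folr1* went with *Ttr* and *Prlr* did not. *Folr1* had 6, 101 and 101 reads in controls and 30, 17, 3, 123 and 5 reads in deleted cortices. *Enpp2* had 264, 433 and 623 reads against 403, 442, 325, 971 and 208 reads, so its order was much the same over a 4.00-fold range. *Kl* had 5, 11 and 16 reads against 4, 18, 11, 18 and 3 reads. *Prlr* had 15, 9 and 7 reads in controls and 8, 25, 28, 12 and 13 reads in deleted cortices, with its highest values where *Ttr* was at 423 and 40 reads. Counting *Ttr* itself, 8 of the 10 members had the same 3 highest cortex libraries, *Kl* and *Prlr* being the exceptions, but for *Enpp2* the third library was only 1.02-fold above the fourth (18.15 against 17.84 CPM).

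**Figure D1:**
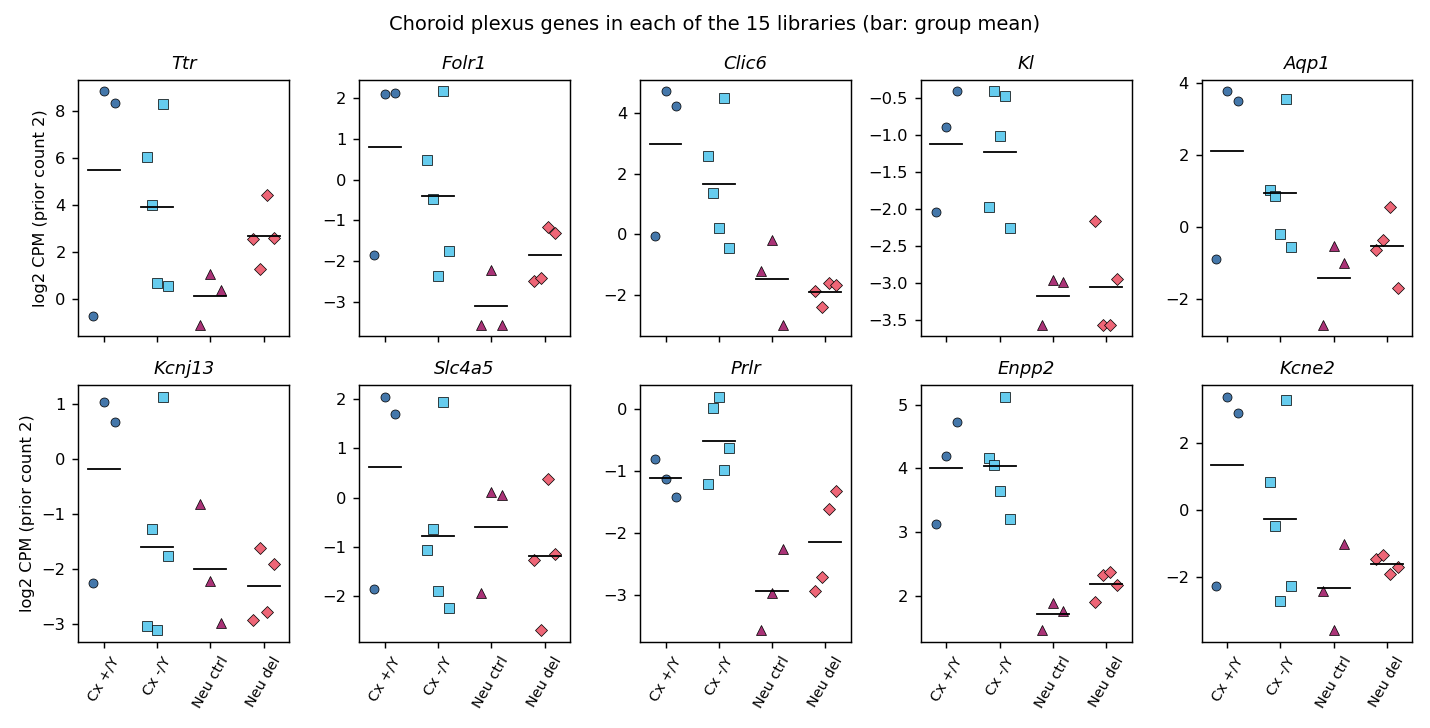
Level of each choroid plexus gene as log2 CPM (prior count 2, vertical axis) in every library, by group (Cx, E15.5 cortex of *Phf6 +/Y* or *-/Y*; Neu ctrl and Neu del, control and *Phf6*-deleted E16.5 neurons), with a bar at the group mean. In the cortex, 2 of the 3 controls and 1 of the 5 deleted samples stand above the rest in 7 of the 10 panels (all but *Kl*, *Prlr* and *Enpp2*), and in the neurons all 4 deleted cultures lie above all 3 controls for *Ttr* and *Enpp2*.

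The likeness to *Ttr* was described as Pearson's r of log2 CPM over the 8 cortex libraries, which come from 3 litters. It was 0.982 for *Clic6* (Spearman's rho 0.952), 0.982 for *Kcne2* (rho 0.881), 0.98 for *Folr1* (rho 0.833) and 0.968 for *Aqp1* (rho 0.976). These 4 genes stood at ranks 4, 5, 6 and 7 among 14745 tested genes. *Slc4a5* followed with r = 0.928 (rank 24), *Enpp2* with 0.899 (rank 49), *Kcnj13* with 0.773 (rank 189) and *Kl* with 0.62 (rank 620). *Prlr* had r = -0.626, rank 14443. An r above 0.9 was reached by 5 of the 9 other members and by 0.319% of all tested genes. Without the 2 libraries farthest from the median of *Ttr*, control replicate 1 and deleted replicate 5, r was 0.986 for *Clic6*, 0.994 for *Kcne2*, 0.996 for *Folr1*, 0.945 for *Aqp1* and 0.912 for *Slc4a5*, but 0.176 for *Kl*, whose likeness rested on those libraries.

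The 5 genes most like *Ttr* in the cortex were *Calml4* (r = 0.995, 0.099 to 1.97 CPM), the axonemal dynein heavy chain gene *Dnah6* (0.983), the organic anion transporter gene *Slco1a4* (0.983), *Clic6* and *Kcne2*. *Calml4* belongs to a second list of 26 genes known from the choroid plexus, of which 24 were tested in the cortex. Of these 24, 6 had r above 0.9 (*Calml4*, *F5*, *Car12*, *Wfikkn2*, *Tmem72* and *Krt18*), and the median r was 0.762 against -0.009 over all genes. *Otx2*, the transcription factor that specifies the epithelium, had r = 0.281 at 6.17 to 25.9 CPM. *Mfrp*, another gene of this list, had no read in any library.

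**Figure D2:**
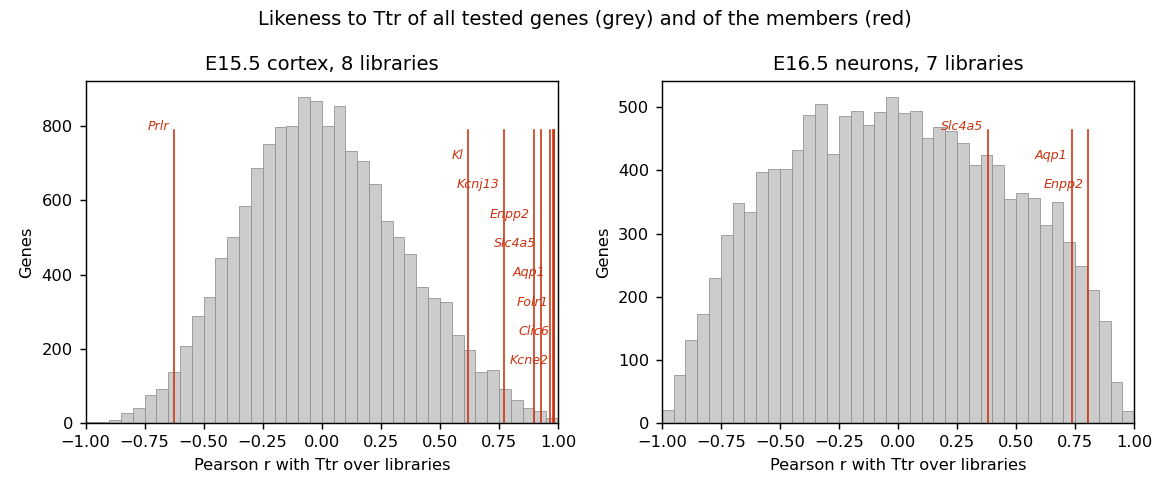
Distribution of Pearson's r with *Ttr* over the libraries of a tissue (horizontal axis, no unit) for all tested genes (grey, number of genes on the vertical axis), with each tested member as a red line. In the cortex (left) 5 members lie above 0.9 and *Prlr* at -0.626, and in the neurons (right) the 3 other tested members lie at 0.804 (*Enpp2*), 0.737 (*Aqp1*) and 0.38 (*Slc4a5*).

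Markers of other cell types moved with *Ttr* in part. The summed level of 8 genes of meningeal fibroblasts was 19.8, 33.2 and 306 CPM in control replicates 1 to 3 and 94.9, 125, 17.7, 593 and 18.3 CPM in deleted replicates 1 to 5, with r = 0.743 to *Ttr* over the 8 libraries. It was thus high in control replicate 3 and deleted replicate 4 but low in control replicate 2, which had the most *Ttr*. The sum of 11 genes of the cortical hem and roof lay between 43.7 and 85.1 CPM (r = 0.81). The sum of 4 genes of ependymal and ciliated cells lay between 15.2 and 24.9 CPM (r = 0.835), with *Ccdc153* and *Tmem212* at 0 reads in every library. Neuronal genes (r = -0.302), genes of neural progenitors (r = -0.184), endothelial cells (0.513), microglia (0.49) and erythroid cells (0.474) were less like *Ttr*. The part of these cells in the levels of the members was not tested.

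No member passed the test between *Phf6 -/Y* and *Phf6 +/Y* cortices, where 57 of 14746 genes (0.387%) had a false discovery rate (FDR) below 0.05 in a quasi-likelihood test of edgeR that included litter. All 10 members were tested, 8 had a negative and 2 a positive log2 fold change (median -1.35 against -0.002 over all genes), and none reached an unadjusted p below 0.05. The fitted log2 fold change of *Ttr* was -2.19 with a standard error of 3.06 (95% interval -10.57 to 6.19, FDR = 0.8715), so a wide range of changes in either direction was within the error. *Kcnj13* had the smallest unadjusted p of the members, at a log2 fold change of -1.81 with a standard error of 0.92 and FDR = 0.554. *Prlr* stood at 0.65 (standard error 0.52, FDR = 0.714) and *Enpp2* at 0.04 (standard error 0.55, FDR = 0.991). Leaving out 1 library at a time moved the log2 fold change of *Ttr* between -4.50 and 0.61, and it was positive only without control replicate 2. With log2 of the summed CPM of the other 9 members as a covariate, the genotype term of *Ttr* was 0.03 with a standard error of 0.72 (FDR = 0.993).

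Within litters, *Ttr* and the members most like it mostly went the same way. In litter 3, *Ttr* was 126-fold higher in the deleted than in the control cortex, with *Kcne2* 12.75-fold, *Folr1* and *Clic6* each 6.71-fold and *Aqp1* 4.32-fold higher. In litter 2, both deleted cortices had less *Ttr* than the control, at 0.0346 and 0.00332 of its level, and *Clic6* was at 0.096 and 0.0407 of the control level. In litter 1, deleted replicate 4 was at 0.953 of the control level of *Ttr* and at 1.205 (*Clic6*), 1.03 (*Folr1*) and 1.31 (*Kcne2*) of the control levels, whereas deleted replicate 5 was at 0.00412 for *Ttr*, 0.0351 for *Clic6* and 0.0182 for *Kcne2*. In 4 of the 5 pairs, all but that of deleted replicate 4, the fold of *Ttr* was farther from 1 than that of any other member.

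In E16.5 cortical neurons, *Ttr* was the only member that passed the test. It rose 7.17-fold in the *Phf6*-deleted cultures. Control replicates 1 to 3 held 11, 46 and 29 reads (0.382, 2.00 and 1.20 CPM). Deleted replicates 1 to 4 held 122, 66, 351 and 130 reads (5.70, 2.29, 21.2 and 5.90 CPM). All 4 deleted cultures lay above all 3 controls, with the lowest deleted culture close to the highest control. On the log2 scale the change was 2.84 (standard error 0.27, 95% interval 2.26 to 3.42), estimated from the 3 litters that held both genotypes, with FDR = 1.85e-04 from edgeR's quasi-likelihood test, the third smallest p of 13905 tested genes. In this comparison 38 genes, or 0.273%, had an FDR below 0.05. The test borrows variance from all tested genes, so the FDR of *Ttr* does not rest on the 3 litters alone.

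The call rested on the litters. Within litters 4, 5 and 6 *Ttr* was 6.00-fold, 10.6-fold and 4.90-fold higher in the deleted culture, so 3 of 3 litters went up, from control levels that themselves ranged from 0.382 to 2.00 CPM. Without litter in the fit the log2 fold change was 2.88 with a standard error of 0.95 and FDR = 0.739, and an exact permutation test of log2 CPM over the 7 cultures, which ignores litter, gave a two-sided p of 0.0571, where the smallest possible was 0.0286. Fits that each lacked 1 culture gave values from 2.39 to 3.14, all 7 with an FDR below 0.05. These amount to 3 distinct checks, since leaving out either culture of a litter removes that litter's comparison and the culture of litter 7 does not bear on the estimate. Leaving out control replicate 2 (2.39) or deleted replicate 3 (2.40, FDR = 0.00357) lowered it most.

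The other members did not pass this test, and most were too low for it. Besides *Ttr*, only *Aqp1*, *Slc4a5* and *Enpp2* passed the filter on low counts, so the other 6 members were tested only in the fit without a filter. *Enpp2* had 77, 83 and 80 reads in controls (2.67, 3.62 and 3.32 CPM) and 78, 142, 84 and 97 reads in deleted cultures (3.64, 4.92, 5.08 and 4.40 CPM). All deleted cultures again lay above all controls, although the closest pair was 3.64 against 3.62 CPM. Its log2 fold change was 0.60 (standard error 0.23, unadjusted p = 0.0205 and FDR = 0.369 from edgeR's quasi-likelihood test). Such a separation, every deleted above every control culture, was seen in 3.68% of all tested genes. *Aqp1* had 2, 14 and 10 reads against 12, 20, 23 and 5 reads, overlapping, and a fitted log2 value of 1.09 with a standard error of 0.70 and FDR = 0.6465. *Slc4a5* had 5, 23 and 23 reads against 7, 2, 20 and 8 reads and a fitted log2 value of -0.60 with a standard error of 0.62 and FDR = 0.811. The median over the 4 tested members was 0.84 against 0.001 over all genes.

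The 6 members that the filter removed held few reads. *Clic6*, whose cortex levels followed *Ttr* closely, had 10, 18 and 1 reads in controls and 4, 3, 4 and 5 reads in deleted cultures. *Folr1* had 0, 3 and 0 reads in controls and 2, 3, 6 and 7 reads in deleted cultures. *Kcne2* had 3, 0 and 10 reads against 6, 9, 3 and 5 reads, and *Kcnj13* 14, 3 and 1 reads against 1, 7, 1 and 4 reads. *Kl* had 0, 1 and 1 reads against 3, 0, 0 and 1 reads, and *Prlr* 0, 1 and 3 reads against 1, 2, 4 and 7 reads. For each of these 6 genes the groups overlapped when litter was ignored. Within litters, *Folr1* was higher in the deleted culture in 3 of 3 litters (log2 CPM differences 1.153, 1.053 and 2.244 in litters 4 to 6) and *Prlr* in 3 of 3 (0.861, 1.345 and 0.943), the same direction as *Ttr*, while *Clic6* was higher in 1 of 3. In edgeR's quasi-likelihood test without a filter on low counts, the log2 fold change of *Folr1* was 2.84, as large as that of *Ttr*, with a standard error of 1.87 and FDR = 0.755, and that of *Prlr* was 2.00 with a standard error of 1.86 and FDR = 0.917. *Kcne2* stood at 0.90 (standard error 1.39), *Kcnj13* at -0.19 (1.51), *Kl* at -0.68 (3.02) and *Clic6* at -0.70 (1.26) in that fit. A count of 0 allows up to 3 reads, which is 0.104 to 0.181 CPM in these libraries. Summed over the cultures, *Folr1* had 3 reads in controls (exact Poisson 95% interval 0.619 to 8.77) and 18 in deleted cultures (10.7 to 28.4), and *Clic6* had 29 (19.4 to 41.6) and 16 (9.14 to 26.0), intervals that cover counting error only.

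**Figure D3:**
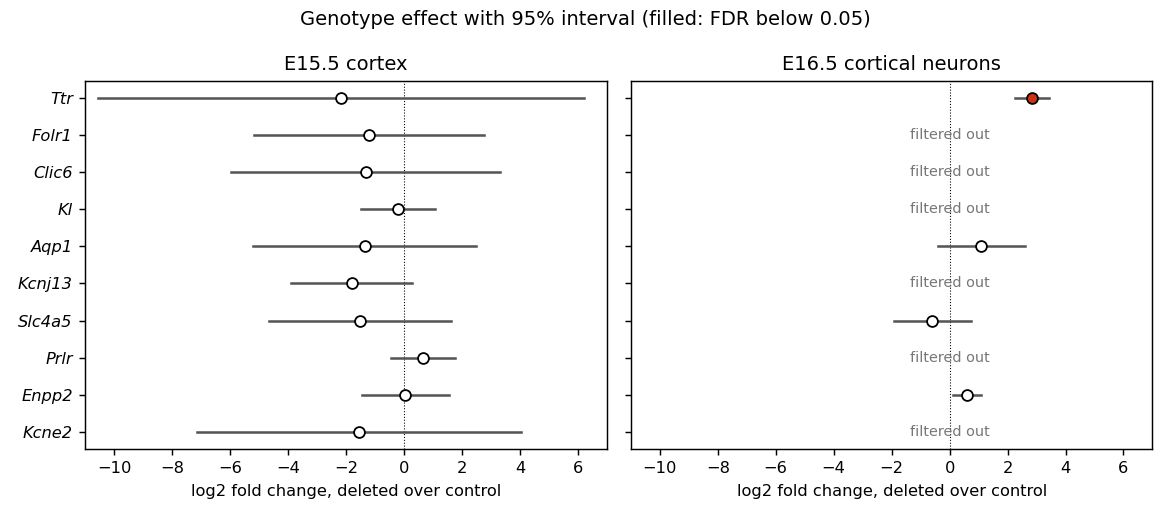
Fitted log2 fold change of each member, deleted over control (horizontal axis), with its 95% interval, in the E15.5 cortex (left) and in E16.5 neurons (right). Filled points have an FDR below 0.05. Only *Ttr* in the neurons, at 2.84, is filled, and 6 members were filtered out there.

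The balance between *Ttr* and the other members was described from the reads themselves. In the 3 cortices with most *Ttr* there were 17.5, 17.6 and 13.9 *Ttr* reads for each *Clic6* read, and in the other 5 between 0.593 and 11.1. Control cultures had 1.10, 2.56 and 29.0 *Ttr* reads per *Clic6* read, the last over a single *Clic6* read, and deleted cultures had 30.5, 22.0, 87.75 and 26.0. Against the sum of the 8 members other than *Ttr* and *Enpp2*, there were 0.324, 0.730 and 0.592 *Ttr* reads per read in control cultures and 3.39, 1.44, 5.75 and 3.10 in deleted cultures. In the cortex the same quantity ran from 0.198 to 7.51, and it was 0.198 in the control and 5.56 in the deleted sample of litter 3. Deleted culture replicate 3, with 21.2 CPM of *Ttr*, had 0.242 CPM of *Clic6*, while deleted cortex replicate 2, with 15.9 CPM of *Ttr*, had 2.51 CPM of *Clic6*. The gap differed between members. *Aqp1* stood at 1.39 CPM in that culture and 1.76 CPM in that cortex, and *Slc4a5* alone was higher in the culture. The 8 members other than *Ttr* and *Enpp2* summed to 3.69 CPM in that culture and 8.07 CPM in that cortex. CPM values were scaled within each tissue.

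**Figure D4:**
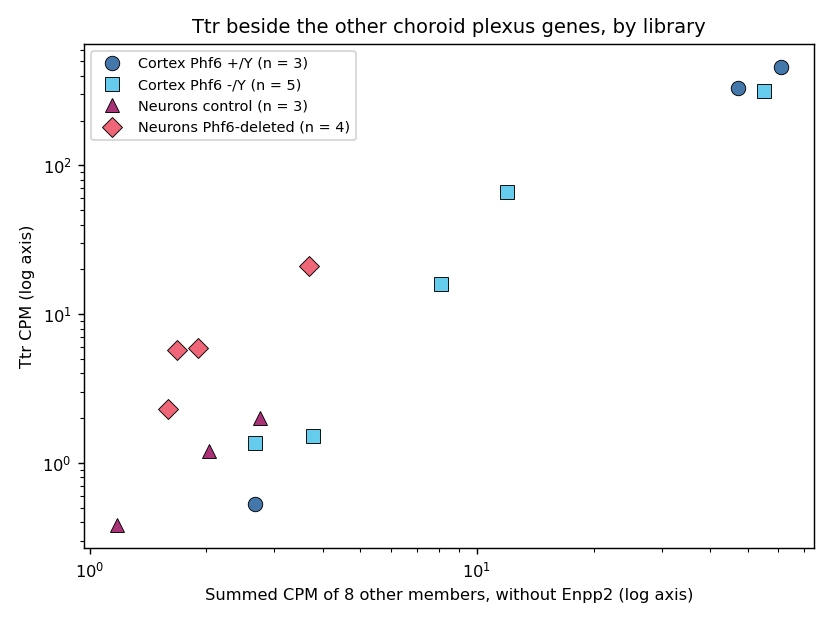
*Ttr* level (CPM, logarithmic vertical axis) against the summed level of the 8 members other than *Ttr* and *Enpp2* (CPM, logarithmic horizontal axis), 1 point per library. The 8 cortices lie along a rising band from 0.528 to 458.5 CPM of *Ttr*, and the 4 deleted cultures have 2.29 to 21.2 CPM of *Ttr* where the other members sum to 1.59 to 3.69 CPM.

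Over the 7 cultures, no other tested member had r above 0.9 with *Ttr*, which 0.604% of genes reached. *Enpp2* had r = 0.804 (rank 436 of 13904), *Aqp1* 0.737 and *Slc4a5* 0.38. Without the 2 cultures farthest from the median of *Ttr*, control replicate 1 and deleted replicate 3, these were 0.34, -0.379 and -0.384, so the likeness rested on those cultures. Of the members removed by the filter *Folr1* had r = 0.879 and *Clic6* -0.021, on the few reads given above. The 5 genes most like *Ttr* were *Vgf* (r = 0.994, 17.0 to 43.2 CPM), which encodes a secreted neuropeptide precursor, the acid-sensing channel gene *Asic2* (0.991), *Spata5l1* (0.975), *Lrrfip1* (0.971) and *Msra* (0.969), none of them on a choroid plexus list.

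Within litters 4, 5 and 6 the summed level of the other 9 members went from 3.85 to 6.52, from 6.37 to 8.76 and from 5.35 to 6.31 CPM. It was thus higher in the deleted culture in 3 of 3 litters, by less than *Ttr*. With *Enpp2* left out, the sum went from 1.18 to 1.595, from 2.75 to 3.69 and from 2.03 to 1.91 CPM. That smaller sum was therefore lower in the deleted culture of litter 6. The rise of *Ttr* was estimated again with the other members in the fit. With log2 of the summed CPM of the other 9 members as a covariate, the log2 fold change was 2.50 with a standard error of 0.74 and FDR = 0.1285, and the call was lost. *Enpp2* gave 56.8% to 75.5% of the reads in this sum. With *Enpp2* left out of the sum, an alternative chosen after the data had been seen, it was 2.45 with a standard error of 0.38 and FDR = 1.98e-07. The estimate was thus close to that without a covariate in each fit, and its error depended on which members made the sum. Genotype and covariate were both fitted to the 3 litters that held both genotypes. The error and the FDR of either fit therefore have little support from these samples.

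**Figure D5:**
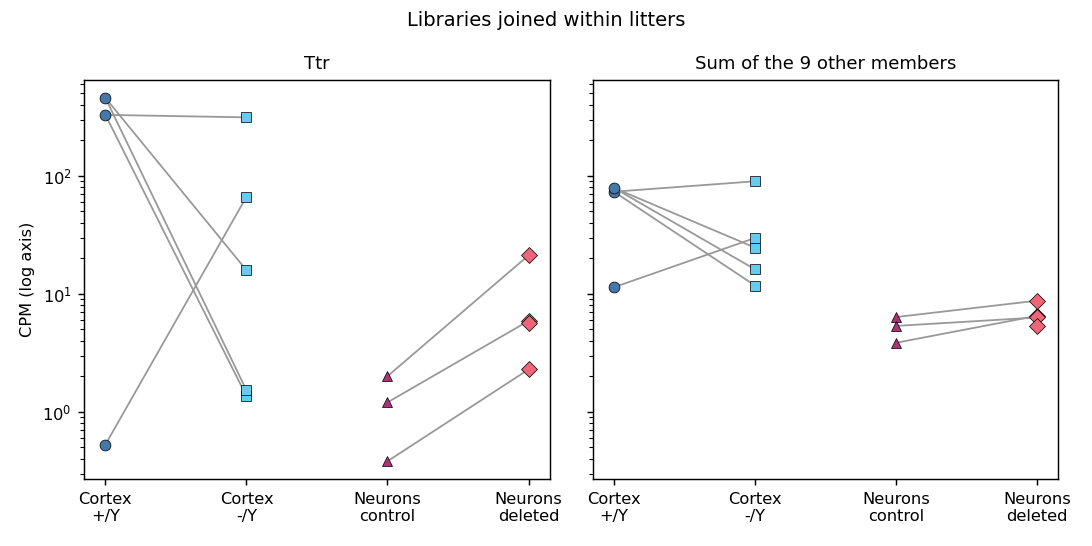
*Ttr* (left) and the sum of the 9 other members (right) in CPM (logarithmic vertical axis), with lines joining the control and the deleted samples of a litter. In the cortex 3 of the 5 lines go down and 1 goes up in both panels. The line to deleted replicate 4 of litter 1 is nearly level for *Ttr* (329 to 314 CPM) and goes up for the sum (73.5 to 90.05 CPM). In the neurons *Ttr* goes up 4.90-fold to 10.6-fold in 3 litters, and the sum of the other members also goes up in each of them, from 3.85 to 6.52, 6.37 to 8.76 and 5.35 to 6.31 CPM. With *Enpp2* left out (not drawn), that sum goes from 1.18 to 1.595, 2.75 to 3.69 and 2.03 to 1.91 CPM, down in litter 6.

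Summed markers of other cells were lower in the cultures than in the cortex, except those of neurons, and some moved with *Ttr*. The neuronal genes summed to 8042 to 9015 CPM in control and 8517 to 9061 CPM in deleted cultures, against 4967 to 6457 CPM in the cortices. The meningeal genes summed to 2.81 to 5.68 CPM in control and 4.92 to 6.67 CPM in deleted cultures, the endothelial genes to 4.51 to 5.52 and 5.31 to 9.07 CPM, and the ependymal genes, nearly all of them reads of *Foxj1*, to 4.10 to 6.56 and 6.69 to 12.1 CPM. The genes of the cortical hem and roof summed to 29.2 to 35.4 and 31.4 to 39.9 CPM. Over the 7 cultures r with *Ttr* was 0.817 for the sum of the second choroid plexus list, 0.807 for the endothelial, 0.765 for the meningeal, 0.474 for the ependymal and 0.404 for the hem genes, and -0.28 for microglia, -0.163 for erythroid cells, -0.023 for neurons and -0.519 for neural progenitors. Taken singly, 3 of the 16 tested genes of the second choroid plexus list had r above 0.8, which 3.27% of all tested genes reached. None of them, 0 of 16, had r above 0.9, and their median r was 0.51 against -0.018 over all genes. Of the defining markers, *Ccdc153*, *Tmem212* and *Mfrp* had no reads in any culture, as in the cortex, and *Tmem72* (choroid plexus) had none in the cultures. *Calml4*, the gene most like *Ttr* in the cortex, had 0, 0 and 1 reads in control and 4, 15, 5 and 6 reads in deleted cultures, all above every control, and did not pass the filter on low counts. Among genes that passed the filter, 3.68% had every deleted above every control culture. The culture reads of *Dnah6* and *Slco1a4*, the next genes most like *Ttr* in the cortex, are not given here. Only 5 of 8 meningeal, 3 of 6 endothelial, 1 of 4 ependymal and 6 of 11 hem genes passed the filter. None of these tested genes had an FDR below 0.05. The sum of the second choroid plexus list was 467 to 481.5 CPM in control and 519 to 564 CPM in deleted cultures. *Slc29a4* (138 to 168 CPM over the 7 cultures), *Igfbp2* (110 to 156 CPM) and *Atp1b1* made up a large part of this sum. In that list 16 of 26 genes were tested and 1 passed, *Atp1b1*, the beta subunit of the sodium pump, which neurons also use. It had 94.98, 104 and 111 CPM in controls and 120, 124, 142 and 148 CPM in deleted cultures, without overlap, and rose by a log2 value of 0.42 with a standard error of 0.06 (FDR = 0.00569). Its r with *Ttr* was 0.857. The part of other cells in the level of *Ttr* was not tested.

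The genotype effect of *Ttr* was not shown to differ between the tissues. The interaction of genotype and tissue had a log2 value of 5.09 (neurons minus cortex) with a standard error of 4.48 and FDR = 0.955 in edgeR's quasi-likelihood test over all 15 libraries. None of the 10 members passed, 9 of them had a positive value, and 2 of 14997 genes (0.0133%) passed. The standard errors of the members in this test lay between 0.73 (*Enpp2*) and 4.48 (*Ttr*), so that differences of several log2 units were within the error.

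All 6 members that could be tested between control neurons and control cortices had lower levels in the neurons, a comparison in which tissue, age, culture and the Nes-cre transgene differ together and 51.1% of 14316 genes passed. Only *Enpp2* was called, at a log2 value of -2.32 with a standard error of 0.38 (FDR = 0.00116 in edgeR's quasi-likelihood test). *Ttr* stood at -7.68 (standard error 2.57, FDR = 0.0700), *Clic6* at -5.14 (standard error 1.65, FDR = 0.0617), *Aqp1* at -4.42, *Kcnj13* at -2.20 and *Slc4a5* at -1.66. Control cortex replicate 1, with 16 *Ttr* reads, bore on these calls. Without it all 6 of these members passed, as did *Folr1*, *Kl* and *Kcne2*, which the filter then let through, in a fit where 3038 genes were higher and 3272 lower of 14573 tested. In the second choroid plexus list 11 of 18 tested genes were lower and 2 higher in the neurons. Among the lower ones were the transcription factor genes *Otx2* (-2.85) and *Lmx1a* (-1.65), the growth factor gene *Igf2* (-5.59) and its binding protein gene *Igfbp2* (-0.24), the ion channel gene *Trpv4* (-3.86), *Ace* (-1.48), *Wfikkn2* (-5.17), *Abca4* (-1.79), *Col8a1* (-1.59) and *Cab39l* (-0.47). *Slc29a4*, a monoamine transporter gene, and *Atp1b1* were higher (0.51 and 0.90). With library totals in place of TMM scaling the median of all genes moved from -0.03 to -0.17 and the share of higher genes among those that passed from 48.4% to 33.0%, while each gene of this list named here kept its direction and an FDR below 0.05.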

How the data were processed

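RNA was sequenced from 8 E15.5 cortices and 7 cultures of E16.5 cortical neurons. The authors made stranded libraries, aligned paired-end reads to mm10 with Rsubread and deposited raw counts per Entrez gene from featureCounts with its inbuilt RefSeq annotation; the strand setting is not given in the sources used here. Of 27179 entries in the deposited table, 1029 without an identifier (0.349% to 0.605% of reads) and 875 identifiers not matched in GRCm38.p6 were left out, as were 35 ribosomal RNA genes, 835 pseudogenes, 1273 genes with predicted names and 4 off the chromosomes, which left 23128 genes. Genotype was tested within a tissue with edgeR 4.0.16 (R 4.3.3; filterByExpr by group, TMM, robust quasi-likelihood F test) litter being a fixed term and the Benjamini-Hochberg threshold 0.05 over every tested gene. Litters come from the labels and pair the samples. The replicate numbers of the titles follow litters only for replicates 1 and 2 of the cortex, and not in the neurons. CPM use TMM library sizes within a tissue, RPKM the deposited gene lengths, and log2 CPM a prior count of 2. Fits were tested on simulated data. DESeq2 1.42.0 and limma 3.58.1 were alternatives. A read in 1 library is 0.0330 to 0.0604 CPM. The p-values cover only the spread between these samples, within litters where litter was in the fit. The fits also borrow the variance of each gene from the other tested genes. A small p from a fit therefore does not rest on these few samples alone. The genes named were the 10 members, genes of the second choroid plexus list that passed a test, and the 5 genes per tissue most like *Ttr*; other genes of the lists were named after their values were seen. The members and all gene lists were chosen with earlier results of these data known. A result for 1 gene of the lists is not given here.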

Additional observations from a re-analysis of the deposited data

Results flagged for a closer look

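On the CPM scale, deleted cortex replicate 4 stood apart from the other 4 *Phf6 -/Y* cortices in 7 members. It was the highest library, by a gap that exceeded the 95% critical value of Dixon's test for 5 samples, in *Ttr* (313.6 CPM), *Folr1* (4.411 CPM), *Clic6* (22.56 CPM), *Aqp1* (11.83 CPM), *Kcnj13* (2.116 CPM), *Slc4a5* (3.801 CPM) and *Kcne2* (9.431 CPM). The groups of 4 and 5 samples were tested for each of the 10 members, 20 tests in all. Chance flags about 5% of such groups if the values are close to normal, which need not hold for CPM over so wide a range. On the log2 CPM scale, which was not tested, *Ttr* was 8.29 in this library. It was 6.06, 4.00, 0.68 and 0.52 in deleted replicates 1, 2, 3 and 5, so the gap was much less marked. The 7 genes share this library and are not separate cases. Among the cortices, the same library had the highest sums of meningeal genes (593 CPM) and of genes of the cortical hem and roof (85.1 CPM). Its sums of the second choroid plexus list (838 CPM), endothelial (310 CPM), erythroid (294 CPM), microglial (62.9 CPM) and ependymal genes (24.9 CPM) were also the highest. Its sum of neural progenitor genes (967 CPM) was the lowest, and that of neuronal genes (5727 CPM) lay within the range of the others. The part of these cells in these values was not tested. Without deleted cortex replicate 4 the log2 fold change of *Ttr* in the cortex was -4.50 (standard error 3.38, FDR = 0.667 in edgeR's quasi-likelihood test). No culture of the *Phf6*-deleted neurons was set apart in this way for any member.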

How the results depend on the processing

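No member was called in the cortex, and none in the test of genotype by tissue, under any alternative run. *Ttr* was called in the neurons by DESeq2, by limma-trend, with DESeq2 size factors, with library totals, without a filter on low counts and without each culture or litter (log2 fold change 2.39 to 3.14, FDR from 2.58e-27 to 0.00883 over these fits). It was not called without litter (log2 fold change 2.88, FDR = 0.739, 0 members called), nor with the replicate number as a block in place of litter (2.70, FDR = 0.866, 0 members called), nor with the sum of all other members as a covariate (2.50, FDR = 0.1285); the standard errors were 0.95, 1.02 and 0.74 against 0.27. In the neurons the replicate numbers do not follow litters, so this block is no pairing. In the cortex, replicates 1 and 2 of both genotypes share a litter (litters 3 and 2), and replicate 3 does not. With the block in the cortex the value of *Ttr* was -3.78, and no member was called. Between control neurons and control cortices 1 member was called, but 5 by DESeq2, 3 without the filter and 4 with the replicate number as a block. With each library left out the count ranged from 1 to 9, the highest without control cortex replicate 1, 3 without control culture replicate 1 and 2 without control culture replicates 2 or 3. The value of *Ttr* in the cortex was positive without control replicate 2 (0.61), without litter 2 (0.63) and with either covariate (0.03 and 0.44). In the neurons, genotype calls over all genes went from 38 to 1 without litter, 5 with the replicate block, 62 by DESeq2, 73 with library totals and 297 without a filter. In the cortex they went from 57 to 1, 75, 199, 56 and 114. Low counts limit the tests in the cultures, where 6 members held at most 18 reads in a library. Total counts were similar in the tissues, with medians of 24898363 (control) and 22444749 (deleted) in cultures and 24218468 and 26849458 in cortices.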
